A study of Rattus norvegicus with 5 samples.

Results

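Cell cycle and proliferation genes are the 35 genes considered here. The 13 that act before or during DNA synthesis are called S-phase members. The 22 linked to entry into mitosis or to mitosis itself are called mitotic members. The rule lists the 35 genes by name, with earlier results of these data known, and they were found on the arrays through the RefSeq accession of each probe. The split into classes was made here, since the rule assigns no gene to a class. It puts Foxm1, a transcription factor, with the mitotic members. For 31 of the 35 a probe was found (12 S-phase and 19 mitotic), and the other 4 (Mcm5, Top2a, Bub1b and Cenpe) were not analysed here. All 31 were well above background on all 5 arrays and entered the 18903 features tested, so no member was gained or lost through the filter on dim probes.

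The samples were tumours of C6-L, a rat glioma line, grown in BALB/c nu/nu nude mice whose age the labels give as 6 weeks. They were 3 metastatic lung nodules from mice taken 6 weeks after γ-irradiation, 1 irradiated primary tumour of the same time point, and 1 primary that was not irradiated, taken 6 weeks after the cells were implanted, with 1 single-colour array each. The labels give no radiation dose and leave it unsaid if each nodule grew in its own animal and how many tumours a sample held, so the tests use only the spread among these 3 arrays, which may be technical. Each primary is 1 array, and a test against it takes its spread from the 3 nodules, which the lone primary is assumed to share. The time points of both primaries are counted from different events. The probes are rat sequences in a mouse host, so host RNA was read through probes of another species.

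Dividing cells pass from growth into DNA synthesis when cyclin E with its kinase releases E2F factors, which switch on the helicase subunits, nucleotide synthesis enzymes and replication factors of S phase. Later, cyclins A and B with Cdk1, the Polo and Aurora kinases and a group of kinesins build the spindle, and the ubiquitin ligase that Cdc20 activates ends mitosis. Transcripts of both sets are low in resting cells, and those of the mitotic set peak late in the cycle, so their levels in a tissue are widely used as a measure of how many cells divide.

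In the promoters of the members the letters known for these phases could be searched. Promoters here are the 250 bases before and 50 after the start of a gene, taken from RefSeq (build GRCr8), which gave an entry for 26 members, 9 S-phase and 17 mitotic. The search took 4 runs of letters for E2F factors (TTCCCGC as well as TTGGCGC as well as TTCGCGC as well as TTGCCGC). For the cell cycle homology region (CHR, bound by the complex that times mitotic genes) it took TTTGAA or else TTCGAA, and for the factor NF-Y it took CCAAT. Both strands were searched, and no motif overlapped another in the promoters shown. E2F letters stood in 7 of 9 S-phase and 3 of 17 mitotic promoters, and in 9.52% of all 33469 promoters of that length. CHR letters stood in 2 of 9 S-phase and 10 of 17 mitotic promoters, and in 19.7% of all. CCAAT stood in 5 of 9 S-phase and 13 of 17 mitotic promoters, and in 37.5% of all. A match is only a run of letters, and its absence says nothing about a factor. The promoters printed here belong to the members with an entry that differed most between the nodules and the non-irradiated primary in each class, and capitals mark the letters searched. Ccne1 lies at chr1:99927860-99928159 on the minus strand and held none of them. Mcm3 lies at chr9:30733697-30733996 on the minus strand, with 2 E2F matches near its start and 3 of CCAAT. Kif11 (chr1:244536617-244536916, plus strand) held 1 CCAAT, Kif20a (chr18:26504172-26504471, plus strand) held 3, and Plk1 (chr1:186147408-186147707, plus strand) held 1 CCAAT and, just past its start, 1 CHR match.
Ccne1: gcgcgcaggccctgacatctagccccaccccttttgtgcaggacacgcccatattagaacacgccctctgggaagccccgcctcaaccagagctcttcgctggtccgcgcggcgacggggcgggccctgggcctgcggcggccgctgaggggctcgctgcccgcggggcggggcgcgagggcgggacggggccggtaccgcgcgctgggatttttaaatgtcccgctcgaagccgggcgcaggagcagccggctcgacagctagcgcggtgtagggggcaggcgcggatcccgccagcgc
Mcm3: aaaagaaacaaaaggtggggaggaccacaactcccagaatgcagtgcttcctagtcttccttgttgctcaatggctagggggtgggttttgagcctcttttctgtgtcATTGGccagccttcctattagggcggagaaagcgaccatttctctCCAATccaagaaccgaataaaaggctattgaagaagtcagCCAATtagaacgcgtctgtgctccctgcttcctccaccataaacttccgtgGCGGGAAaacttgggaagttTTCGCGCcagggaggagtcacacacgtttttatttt
Kif11: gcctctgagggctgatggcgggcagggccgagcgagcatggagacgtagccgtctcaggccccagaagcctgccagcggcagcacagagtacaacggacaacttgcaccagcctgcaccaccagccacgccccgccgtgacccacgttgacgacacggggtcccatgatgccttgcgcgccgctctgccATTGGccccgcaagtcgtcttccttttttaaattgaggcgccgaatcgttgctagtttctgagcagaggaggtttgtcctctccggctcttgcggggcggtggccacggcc
Kif20a: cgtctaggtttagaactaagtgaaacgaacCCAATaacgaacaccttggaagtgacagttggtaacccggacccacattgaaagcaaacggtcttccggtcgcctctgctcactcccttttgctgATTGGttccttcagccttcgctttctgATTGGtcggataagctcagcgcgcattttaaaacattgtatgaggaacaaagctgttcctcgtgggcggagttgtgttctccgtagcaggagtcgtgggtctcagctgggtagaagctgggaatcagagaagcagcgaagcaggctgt
Plk1: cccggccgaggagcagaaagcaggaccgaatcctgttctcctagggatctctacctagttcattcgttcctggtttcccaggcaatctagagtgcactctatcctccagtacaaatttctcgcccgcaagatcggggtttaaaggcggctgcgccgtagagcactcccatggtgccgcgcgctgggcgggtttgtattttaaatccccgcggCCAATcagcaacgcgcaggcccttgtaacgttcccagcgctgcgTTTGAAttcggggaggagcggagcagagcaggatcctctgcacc

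Levels below are log2 signals minus the 75th percentile of the same array, so 0 is a fairly bright signal on every array, and a difference of 1 is a doubling. A level can be compared between arrays but not between genes, since each gene is read by another probe. Signals well above background made up 69.8 to 73.5% of gene spots, and 0 spots were saturated. Within a probe, repeated spots of a member had a median SD of 0.038 (largest 0.20). Glioma and glial markers were well above background for 9 of 11 genes on each array, vimentin (Vim) and Nes among them, while Gfap and Olig2 were not on any. All arrays lay on 1 slide, with the nodules in one row and the primaries in another, so the row on the slide and the group cannot be told apart.

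Proliferation transcripts were higher in the lung nodules than in the non-irradiated primary. Of 31 members 18 rose (6 of 12 S-phase, 12 of 19 mitotic), 0 fell and 13 did not pass, by limma with p adjusted over all 18903 features. Among all features 18.6% passed: 9.74% rose and 8.85% fell. The median log2 difference was 0.69 over the S-phase members and 1.08 over the mitotic members, against 0.038 over all features tested. All 3 nodules lay above the non-irradiated primary for 28 of 31 members, against 40.1% of all features, and below it for 1, against 36.8%. At an unadjusted p under 0.05, 26 members differed (25 higher), against 36.9% of all features. In bulk tissue, fewer dividing cells and less RNA of these genes per cell cannot be told apart. The count depended on which nodules entered: it was 26 without nodule 1 (25 higher and 1, Foxm1, lower), where 33.9% of all features passed and 17.6% rose. It was 0 without nodule 2 (24 at an unadjusted p under 0.05), where 0% of all features rose, and 3 without nodule 3 (Mki67, Kif11 and Kif20a), where 0.825% rose. The median differences moved less than the counts. Without nodule 1, 2 or 3 in turn, the S-phase median was 0.69, 0.71 and 0.68. The mitotic median was 1.18, 1.07 and 0.96. Each of these fits subtracts the same lone primary array, whose own spread was not tested. The calls of Ccne1, Rrm2, Tyms, Aurka, Bub1, Cenpf and Ube2c were lost with array median scaling (limma adjusted p = 0.0512 to 0.0698) and without an intensity trend in the variance (adjusted p = 0.0507 to 0.0624).

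**Figure D1:**
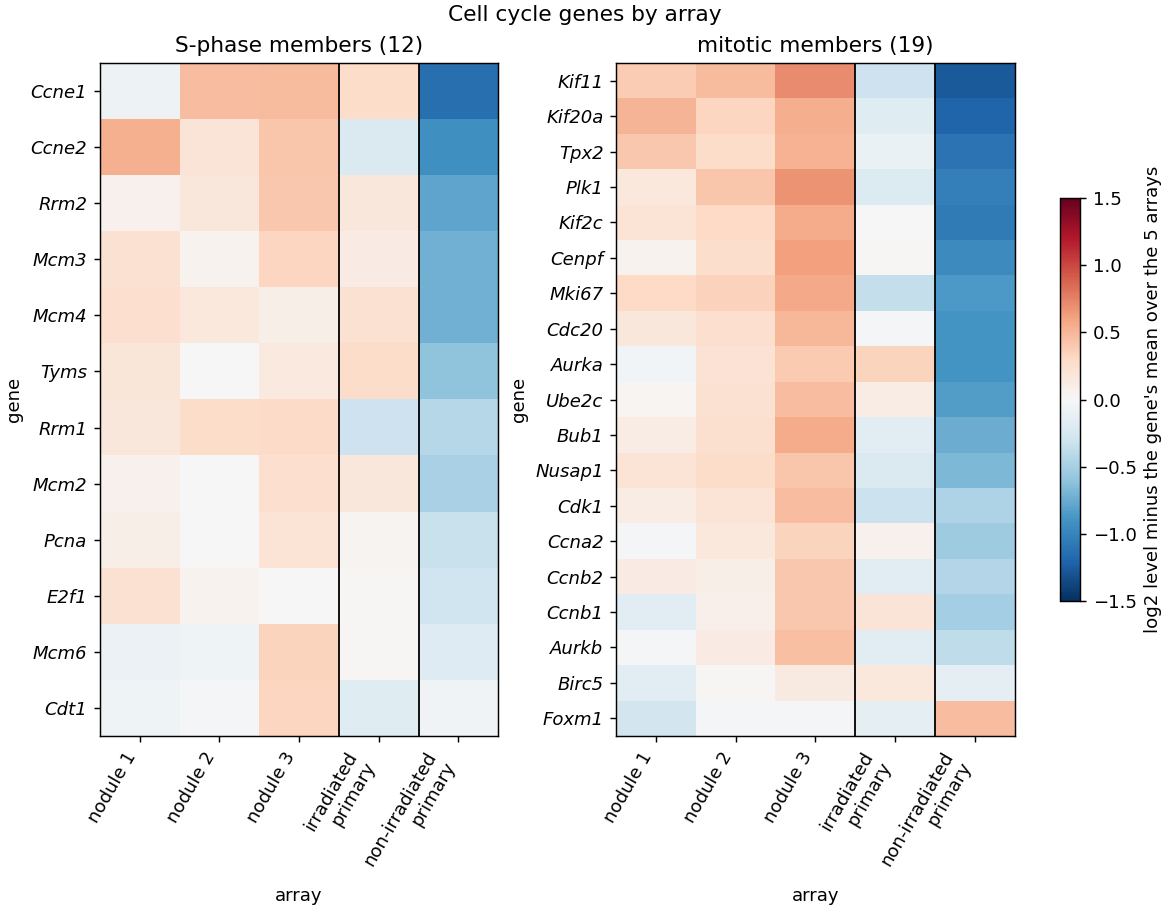
Heat map of the 31 measured members, S-phase on the left and mitotic on the right, with 1 column per array; colour is the log2 level minus the gene's mean over the 5 arrays. The non-irradiated primary is the lowest of the 5 arrays for 11 of 12 S-phase and 17 of 19 mitotic members, and Foxm1 is highest there.

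Against the irradiated primary no member passed. The counts were 0 of 12 S-phase and 0 of 19 mitotic members, where 3.68% of all features passed, 0.905% as higher and 2.77% as lower. At an unadjusted p under 0.05, 1 S-phase and 7 mitotic members lay higher in the nodules and 0 lay lower, where 21.9% of all features differed and 9.97% lay higher. The median log2 difference was 0.047 over the S-phase members and 0.36 over the mitotic members, against 0.035 over all features. All 3 nodules lay above the irradiated primary for 3 of 12 S-phase and 13 of 19 mitotic members, against 36.2% of all features, and below it for 1 of each class, against 31.8%. Without nodule 1, limma passed 6 members as higher (Mki67, Cdk1, Plk1, Kif11, Kif20a and Nusap1) and 0 as lower, where 16.9% of all features passed and 7.1% rose, so that 6 of 31 is near the share that passed in either direction. Without nodule 2 or nodule 3, 0 members passed, where 0% and 0.153% of all features rose. Both comparisons use the same 3 nodule arrays and are not independent of each other. Whether the mitotic members differ from the S-phase members was not tested.

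**Figure D2:**
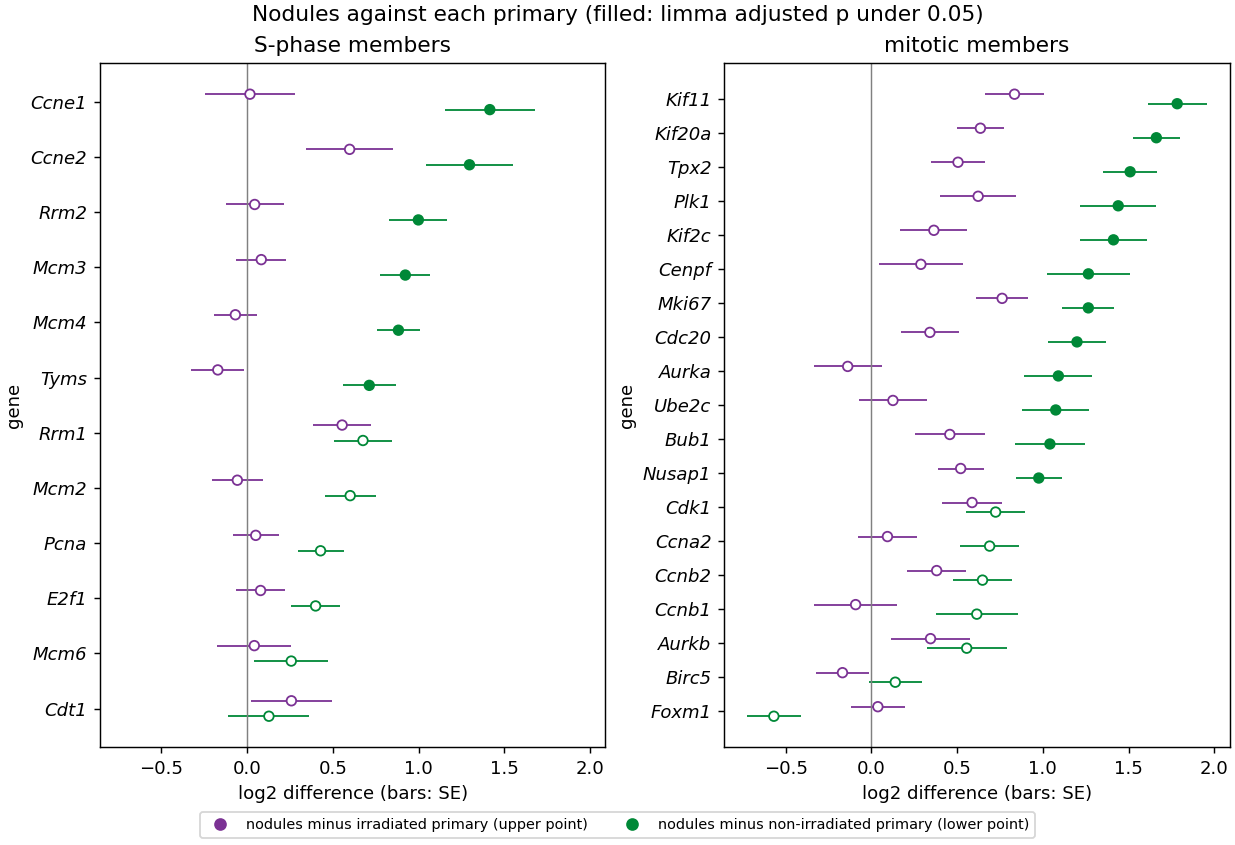
Log2 difference of the nodules (mean of 3) from the irradiated primary (purple, upper point) and from the non-irradiated primary (green, lower point) for each member, with the SE of the limma fit as bars; filled points passed at an adjusted p under 0.05. Green points are filled for 6 S-phase and 12 mitotic members, and no purple point is filled.

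The cyclins E open S phase by activating Cdk2. Ccne1 had levels of 0.99, 1.53 and 1.54 in nodules 1, 2 and 3, against 1.34 in the irradiated and -0.061 in the non-irradiated primary. All 4 samples taken after irradiation stood apart from the non-irradiated one, and the irradiated primary lay within the range of the nodules. Ccne1 was 2.67-fold higher in the nodules than in the non-irradiated primary (log2 difference 1.42, SE 0.26, limma adjusted p = 0.0306), and 0.02 apart from the irradiated primary (adjusted p = 0.979). Ccne2, its paralogue, had levels of -3.35, -3.69 and -3.47 in the nodules, against -4.10 in the irradiated and -4.80 in the non-irradiated primary. Here the nodules lay above both primaries, by 0.60 against the irradiated one (SE 0.25, adjusted p = 0.262) and by 1.30 against the non-irradiated one (SE 0.25, adjusted p = 0.0334). With normexp background correction the difference from the non-irradiated primary was 0.53 and did not pass (adjusted p = 0.0828), and without the filter on dim probes it did not pass either (adjusted p = 0.0591).

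Ribonucleotide reductase makes deoxynucleotides from a large subunit, Rrm1, and a small one, Rrm2, which is the one made anew each S phase. Rrm2 read 4.92, 5.03 and 5.26 in the nodules, against 5.03 in the irradiated and 4.07 in the non-irradiated primary. It was higher by 1.00 than in the non-irradiated primary (SE 0.17, adjusted p = 0.0258) and stood 0.04 from the irradiated one (adjusted p = 0.908). A second, dimmer Rrm2 probe gave a smaller difference from the non-irradiated primary, 0.25, and with the mean of both probes it was 0.63 and did not pass (adjusted p = 0.083). From the irradiated primary that probe differed by -0.35, with all 3 nodules below it. The Rrm1 levels had another order: -1.94, -1.83 and -1.83 in the nodules, against -2.42 in the irradiated and -2.54 in the non-irradiated primary. Both primaries lay below all nodules for Rrm1, with 0.55 (adjusted p = 0.164) and 0.68 (adjusted p = 0.057) as differences, neither of which passed. Tyms, the enzyme that makes thymidylate, read -0.56, -0.75 and -0.60 in the nodules, against -0.46 in the irradiated and -1.35 in the non-irradiated primary. It rose by 0.71 against the non-irradiated primary (SE 0.16, adjusted p = 0.0424), and the irradiated primary was above all 3 nodules. Without the filter on dim probes the rise of Tyms did not pass (adjusted p = 0.0536).

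The Mcm proteins form the ring of the replicative helicase. Mcm3 read 3.51, 3.34 and 3.60 in the nodules, against 3.40 in the irradiated and 2.56 in the non-irradiated primary. Mcm4 read 2.97, 2.88 and 2.81 in the nodules, against 2.95 and 2.00 in the irradiated and the non-irradiated primary. For both genes the irradiated primary lay among the nodules and the non-irradiated one apart from them, by 0.92 for Mcm3 (SE 0.15, adjusted p = 0.0227) and 0.88 for Mcm4 (SE 0.12, adjusted p = 0.0184). Mcm2 and Mcm6 lay 0.60 (adjusted p = 0.0542) and 0.26 (adjusted p = 0.437) above the non-irradiated primary and did not pass. Pcna, the sliding clamp, and the factor E2f1 lay 0.43 (adjusted p = 0.09) and 0.40 (adjusted p = 0.116) above it. Cdt1, which loads the helicase and is mostly controlled through its destruction, read -2.57, -2.54 and -2.19 in the nodules, against -2.69 in the irradiated and -2.56 in the non-irradiated primary, so that the non-irradiated primary lay among the nodules (difference 0.13, adjusted p = 0.735).

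The mitotic kinesins Kif11 and Kif20a had the highest differences from the non-irradiated primary among the members. Kif11, which pushes the spindle poles apart, read 1.38, 1.47 and 1.71 in the nodules, against 0.69 in the irradiated and -0.26 in the non-irradiated primary. It was 3.44-fold higher than in the non-irradiated primary (log2 difference 1.78, SE 0.17, limma adjusted p = 0.0126) and 1.78-fold higher, short of the test, than in the irradiated one (log2 difference 0.83, SE 0.17, adjusted p = 0.0796). Kif20a, needed for the last step of cell division, read 3.61, 3.42 and 3.64 in the nodules, against 2.92 in the irradiated and 1.89 in the non-irradiated primary. Its difference was 1.66 (SE 0.14, adjusted p = 0.0107) from the non-irradiated and 0.64 (SE 0.14, adjusted p = 0.0887) from the irradiated primary. Kif2c, a kinesin that takes microtubules apart at kinetochores, read -0.65, -0.55 and -0.29 in the nodules, against -0.86 and -1.91 in the irradiated and the non-irradiated primary, and rose by 1.41 against the non-irradiated primary (SE 0.20, adjusted p = 0.0183). In all 3 kinesins the levels stepped down in 1 order, nodules above the irradiated primary and that above the non-irradiated one. That order held for 13 of 19 mitotic and 2 of 12 S-phase members, against 14.7% of all features.

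Tpx2, which activates Aurora A on the spindle, read 0.31, 0.18 and 0.43 in the nodules, against -0.20 in the irradiated and -1.20 in the non-irradiated primary (1.51 above the non-irradiated primary, SE 0.16, adjusted p = 0.0131). Cenpf, a kinetochore protein, read 0.30, 0.51 and 0.86 in the nodules, against 0.27 and -0.71 in the irradiated and the non-irradiated primary. The lowest nodule was thus close to the irradiated primary, while all nodules were above the non-irradiated one by far more than their own range of 0.56 (difference 1.27, SE 0.24, adjusted p = 0.0326). The spindle protein Nusap1 rose by 0.98 (SE 0.13, adjusted p = 0.0183) and the checkpoint kinase Bub1 by 1.04 (SE 0.20, adjusted p = 0.0342) against the non-irradiated primary. For Bub1 a second, dimmer probe read -4.94, -4.46 and -4.45 in the nodules, against -4.83 in the irradiated and -4.25 in the non-irradiated primary, so that it lay on the other side (difference -0.37). It is the 1 gene of 11 with several probes whose probes differed in sign against the non-irradiated primary, and its rise is uncertain for that reason: with the mean of both probes the difference was 0.34 (adjusted p = 0.354). Against the irradiated primary the probes of 3 of the 11 differed in sign (Ccna2, Mcm2 and Rrm2).

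Mki67, which coats mitotic chromosomes and is the usual stain for dividing cells, read 4.14, 4.19 and 4.41 in the nodules, against 3.48 in the irradiated and 2.98 in the non-irradiated primary. It was higher in the nodules by 1.27 than in the non-irradiated primary (SE 0.15, adjusted p = 0.0147), and by 0.76, short of the test, than in the irradiated one (SE 0.15, adjusted p = 0.0755). Its other 2 probes gave 1.21 and 1.29 against the non-irradiated and 0.68 and 0.81 against the irradiated primary.

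Among the kinases, Plk1, which drives entry into mitosis, read 3.46, 3.72 and 3.98 in the nodules, against 3.10 in the irradiated and 2.28 in the non-irradiated primary (1.44 above the non-irradiated primary, SE 0.22, adjusted p = 0.0217). For Aurka, the spindle pole kinase, the irradiated primary lay among the nodules: 1.32, 1.59 and 1.76 in the nodules, against 1.69 in the irradiated and 0.46 in the non-irradiated primary. It rose by 1.09 against the non-irradiated primary (SE 0.20, adjusted p = 0.0296) and lay -0.14 from the irradiated one (adjusted p = 0.736). Cdk1, the kinase of mitosis itself, read 4.18, 4.27 and 4.54 in the nodules, against 3.74 in the irradiated and 3.60 in the non-irradiated primary. Both primaries lay below all nodules for Cdk1, and neither difference passed (0.59, adjusted p = 0.152, and 0.72, adjusted p = 0.0511). Its difference from the non-irradiated primary did pass in 3 of 8 other processing settings.

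The cyclins that bind Cdk1 did not pass. Ccna2, Ccnb1 and Ccnb2 lay 0.69, 0.61 and 0.65 above the non-irradiated primary (adjusted p = 0.0558, 0.141 and 0.0625) and 0.09, -0.09 and 0.38 from the irradiated one, with 0 of 3 past the test. Of the ubiquitin ligase that destroys them, the activator Cdc20 rose by 1.20 (SE 0.17, adjusted p = 0.0185) and the E2 enzyme Ube2c by 1.08 (SE 0.20, adjusted p = 0.0296) against the non-irradiated primary. Aurkb and Birc5, partners in the chromosomal passenger complex, lay 0.56 (adjusted p = 0.161) and 0.14 (adjusted p = 0.556) above the non-irradiated primary. Birc5 read 2.30, 2.48 and 2.59 in the nodules, against 2.62 in the irradiated and 2.32 in the non-irradiated primary, so that all 5 arrays lay close together.

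Foxm1, the factor that switches on many mitotic genes, was the 1 member with a negative difference from the non-irradiated primary. It read 0.79, 1.05 and 1.03 in the nodules, against 0.92 in the irradiated and 1.53 in the non-irradiated primary. All 4 other arrays lay below the non-irradiated primary, with a difference of -0.57 that did not pass (SE 0.16, adjusted p = 0.0685). Its second probe gave -0.19. Without nodule 1 the fall of Foxm1 passed (adjusted p = 0.024).

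The irradiated primary was then set beside the non-irradiated one, as the series' design text names it, with 1 array each and hence no replicate check and no p-value. Its levels were higher for 29 of 31 members (11 of 12 S-phase, 18 of 19 mitotic), where 51.4% of 18434 features well above background in at least 1 of both arrays were higher. The median log2 difference was 0.68 over the S-phase members and 0.71 over the mitotic members, against 0.018 over all such features. At least 2-fold differences were found for 5 members, all higher in the irradiated primary (Ccne1, Aurka, Kif2c, Kif20a and Tpx2), where 16.4% of features passed 2-fold, 9.28% higher and 7.12% lower. Against the share past 2-fold either way, 5 of 31 is near the background. Ccne1 was 2.64-fold, Aurka 2.34-fold, Kif2c 2.07-fold, Kif20a 2.04-fold and Tpx2 2.01-fold higher. Cdt1 and Foxm1 were lower, by log2 differences of -0.13 and -0.61. For 10 of 12 S-phase and 16 of 19 mitotic members the gap between both primaries was wider than the range of the 3 nodules, against 55% of all features. Between nodules, 0 members differed 2-fold in any pair, where 2.25 to 7.03% of features did.

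**Figure D3:**
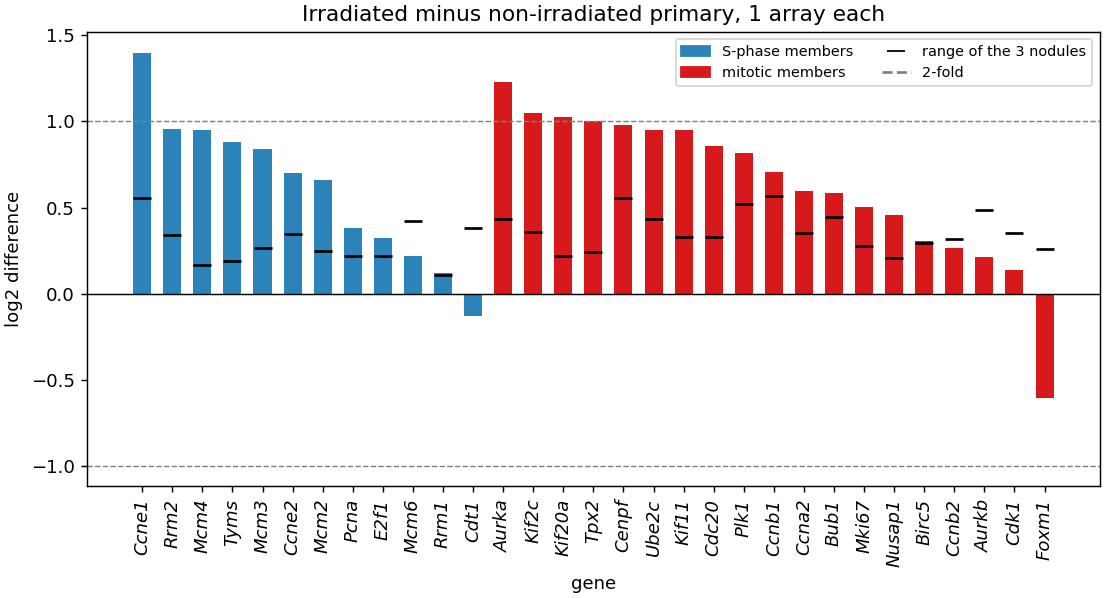
Bars give the log2 difference, irradiated minus non-irradiated primary, of each member (blue S-phase, red mitotic), black dashes the range of the 3 nodules for the same gene, and dashed lines mark 2-fold. Ccne1 at 1.40 and Aurka at 1.23 are the highest, and Foxm1 at -0.61 is the lowest.

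The nodules also had an order among themselves. Nodule 3 was the highest of the nodules for 18 of 19 mitotic and 8 of 12 S-phase members, against 26.1% of all features. Nodule 3 minus nodule 1 had a median of 0.35 over the mitotic and 0.12 over the S-phase members, and of -0.061 over all features. Ccnb1 had the widest range over the nodules, 0.57, and Rrm1 the narrowest, 0.11. These differences between single arrays were not tested.

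Markers of other tissues moved with the groups too, and their part in these results was not tested. The summed level of 13 skeletal muscle markers, in units of the 75th percentile signal, was 5.04 to 5.83 in the nodules, 160.1 in the irradiated and 36.5 in the non-irradiated primary, with 8 to 9 markers well above background in a nodule and 12 in either primary. Of 12 tested muscle markers 11 were past 2-fold higher in the irradiated than in the non-irradiated primary, against 9.28% of features, and Atp2a1 was lower (-0.35). That is the direction of most members between the primaries. In the nodules the muscle sums lay below both primaries, where most mitotic members lay above them. Alveolar and club cell markers (11 genes) summed to 71.7, 21.3 and 0.492 in nodules 1, 2 and 3, against 0.561 in the irradiated and 1.79 in the non-irradiated primary, so that nodule 3, where most members were highest, had the lowest level of lung markers among the nodules. The surfactant genes Sftpa1 and Sftpb were not well above background in nodule 3 or either primary. Cardiac markers (9 genes) summed to 51.4 in nodule 3, 5.83 in nodule 1 and 3.24 in nodule 2, against 6.11 and 6.86 in the irradiated and the non-irradiated primary. The sums of the primaries were close, yet 3 of 8 tested cardiac markers were past 2-fold higher in the irradiated one and 0 lower. Among features 9.28% were past 2-fold higher there and 7.12% lower. Myh6 was higher by 4.67 and Myh7 by 4.99 on the log2 scale. Myl2 (3.70) was well above background on 1 array only. It was tested only through the irradiated primary, where it is high, so its gap is no separate result. At any size 4 of the 8 were higher, with a median of -0.00080. Erythroid markers (6 genes) summed to 564.0, 478.1 and 313.5 in nodules 1, 2 and 3, 106.1 in the irradiated and 39.3 in the non-irradiated primary. These sums stepped down from nodules to irradiated to non-irradiated primary, like most mitotic members and like the endothelial sums given below. Among the nodules the order was another: nodule 3 had the lowest erythroid sum but the highest level for 18 of 19 mitotic members. The brightest of the 6 were the globins Hba-a1 (8.38 in nodule 1) and Hbb-b1 (7.77). Ahsp did not keep the order: it read -2.63 in nodule 3, against -2.50 in the irradiated and -1.42 in the non-irradiated primary. Macrophage markers (8 genes) summed to 5.26 to 6.59 in the nodules, 6.05 in the irradiated and 5.17 in the non-irradiated primary, but single markers moved both ways. Against the non-irradiated primary 3 of 8 rose in the nodules (Aif1 by 2.38, Adgre1 by 1.51 and Csf1r by 1.29) and 2 fell (Cd163, difference -2.54, and Cd68, difference -1.12), by limma. Among all features 9.74% rose and 8.85% fell in that comparison. Aif1 and Adgre1 were past 2-fold higher in the irradiated than in the non-irradiated primary, by 2.07 and 1.39, and Cd163 was past 2-fold lower (-1.15). Endothelial markers (7 genes) summed to 1.27 to 3.80, 0.970 and 0.771 in those groups, T and NK cell markers (9 genes) to 0.180 to 0.288, 0.688 and 0.326, and neutrophil markers (6 genes) to 0.126 to 0.311, 0.109 and 0.131. Few of them were well above background on any array: 3 endothelial, 2 to 5 T and NK cell and 1 to 3 neutrophil markers. Some markers of the tumour's own lineage differed as well. The glioma and glial list summed to 84.7 to 107 in the nodules, 81.6 in the irradiated and 88.1 in the non-irradiated primary. Of its 9 tested genes 0 rose, 2 fell and 7 did not pass against the non-irradiated primary, where 8.85% of all features fell. The 2 were Sox10 (difference -4.90, limma adjusted p = 0.0365) and Nes (-2.43, adjusted p = 0.0364). Sox2 lay lower by -2.28 and did not pass (adjusted p = 0.135). Between the primaries 4 of the 9 (S100b, Sox2, Sox10 and Fabp7) were past 2-fold lower in the irradiated one and 0 higher. Of 12 housekeeping genes 0 rose and 1, B2m, fell against the non-irradiated primary, with a median of -0.011, and 1 of 12 is near the 8.85% of all features.

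**Figure D4:**
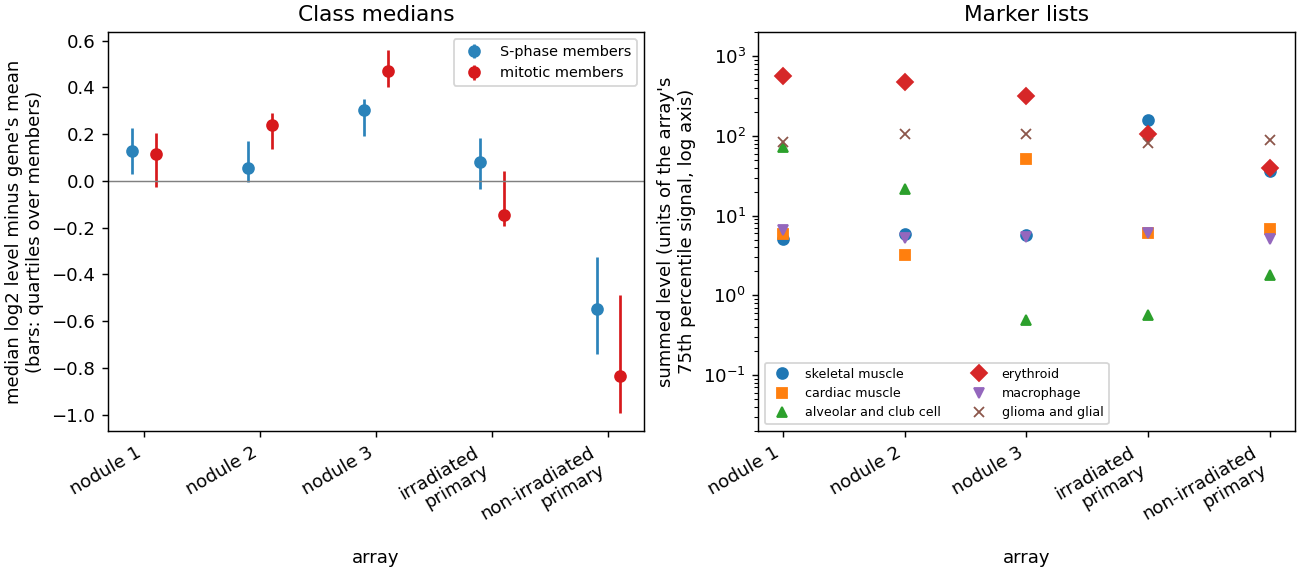
Left, the median over S-phase (blue) and mitotic (red) members of the log2 level minus each gene's mean, with quartiles over members as bars, for the 5 arrays; right, the summed level of 6 marker lists on a log axis. Nodule 3 has the highest median in both classes (0.30 and 0.47) and the non-irradiated primary the lowest (-0.55 and -0.84).

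Other genes of the cell cycle were set beside the members. Among all features 9.74% rose and 8.85% fell against the non-irradiated primary. Of 18 other S-phase genes 4 rose in the nodules against the non-irradiated primary, 0 fell and 14 did not pass, with a median of 0.34. They were Orc1, which marks replication origins (1.55, adjusted p = 0.0187), the polymerase subunit Pola1 (1.22, adjusted p = 0.0328), thymidine kinase Tk1 (0.95, adjusted p = 0.0196) and the helicase factor Gins1 (0.69, adjusted p = 0.0386). Fen1, the flap nuclease, lay 0.53 higher and did not pass (adjusted p = 0.0529). Of 30 other mitotic genes 17 rose, 0 fell and 13 did not pass, with a median of 0.71. The kinase Pbk rose by 1.91 (adjusted p = 0.0183), the spindle protein Ckap2 by 1.47 (adjusted p = 0.0164), the kinetochore protein Ndc80 by 1.44 (adjusted p = 0.0111), the cytokinesis regulator Racgap1 by 1.35 (adjusted p = 0.0162) and the midzone protein Prc1 by 1.26 (adjusted p = 0.0145). Against the irradiated primary 0 of the 18 and 0 of the 30 passed, with medians of 0.063 and 0.29, where 3.68% of all features passed.

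Of 20 regulators of G1 and inhibitors of the cycle that were tested, 6 rose against the non-irradiated primary, 0 fell and 14 did not pass. The shares over all features were 9.74% risen and 8.85% fallen. All 3 nodules lay above the non-irradiated primary for 11 of the 20 and below it for 6, against 40.1% and 36.8% of all features. Brakes were found on both sides. Cdkn2a (-0.55), Btg1 (-0.45) and Cdkn1b (-0.23), also named after their values were seen, lay lower than in the non-irradiated primary and did not pass. Cyclin D2 (Ccnd2) had the lowest difference, -0.90, and did not pass (adjusted p = 0.268). Other brakes rose. Wee1, which holds Cdk1 inactive, read 2.64, 2.98 and 3.01 in the nodules, against 1.53 in the irradiated and 0.79 in the non-irradiated primary. It rose against both, by 2.08 (SE 0.19, adjusted p = 0.0116) against the non-irradiated and by 1.34 (SE 0.19, adjusted p = 0.04) against the irradiated primary. Cdkn1a, the inhibitor p21, read 4.56, 4.43 and 4.38 in the nodules, against 4.65 in the irradiated and 3.22 in the non-irradiated primary (1.24 above the non-irradiated primary, SE 0.13, adjusted p = 0.0131). The retinoblastoma gene Rb1 rose by 1.40 (adjusted p = 0.0171), cyclin D3 (Ccnd3) by 1.36 (adjusted p = 0.0145), and, named after their values were seen, Cdkn2d by 1.07 (adjusted p = 0.0182) and Cdk4 by 0.87 (adjusted p = 0.0207). Cdkn2c, an inhibitor of Cdk4, was named in the same way: with Wee1 it made up the 2 genes that rose against the irradiated primary (0.87, adjusted p = 0.049), and it lay 0.17 from the non-irradiated one. Over all features 0.905% rose against the irradiated primary. Cdkn1c read -0.74, -2.93 and -4.91 in nodules 1, 2 and 3, against -4.62 and -4.65 in the irradiated and the non-irradiated primary, a spread between nodules in which no difference passed. Without nodule 2 none of the 18903 features passed against either primary (4985 and 2686 at an unadjusted p under 0.05 against the non-irradiated and the irradiated one).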

How the data were processed

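RNA of 3 lung nodules, 1 irradiated and 1 non-irradiated primary tumour was hybridised to 1-colour (Cy3) Agilent rat arrays. Intensity was deposited as the processed signal of each spot; background and spatial trend had been removed within an array by Agilent Feature Extraction 11.0, as named per the file headers. Spot flags are other deposited values of 0 or 1 from the same software. The authors' deposited log2 matrix of 18502 probes has sorted columns that differ by at most 0.000749; how it was made is not given in the sources used here, and it served as an alternative.

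Outlier spots were left out, log2 signals were averaged per probe and each array was scaled to the 75th percentile of its non-control probes. RefSeq accessions named 18354 of 30363 probes (60.4%). The brightest probe stood for a gene, and features clearly over background on every array of 1 or more groups were tested with limma 3.58.1 in R 4.3.3 (3 group means, intensity trend, 2 residual degrees of freedom, Benjamini-Hochberg adjusted p under 0.05 over all features). The fit was run on simulated data in which the primaries varied like the nodules, so that assumption was not tested. The primaries, 1 array each, were compared by 2-fold differences. The members, gene lists and tests were chosen with earlier results of these data known. The genes named were all members, up to 5 of each other list by the largest difference, and the promoters of the most different members. The number of arrays limits the precision. Alternatives were median and quantile scaling, normexp (offset 50) on median signals, other filters, another variance model, the mean of all probes and leaving out each nodule.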

Additional observations from a re-analysis of the deposited data

How the results depend on the processing

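Against the non-irradiated primary 18 members passed, 10 of them (Mcm3, Mcm4, Mki67, Cdc20, Plk1, Kif11, Kif20a, Kif2c, Nusap1 and Tpx2) in each of the 8 other processing settings run. The count was 11 with array median scaling and 11 without an intensity trend, 16 to 19 in the other 6 settings, and 0 to 26 with 1 nodule left out. Without nodule 2 the adjusted p of the 18 lay between 0.0635 and 0.12. Such fits keep 1 nodule fewer and assume that the lone primaries vary like the nodules. Against the irradiated primary 0 members passed in each of the 8 settings, and 0 to 6 with 1 nodule left out. Between the primaries, members past 2-fold numbered 2 with array median scaling, 3 with quantile normalization, 3 with normexp, 3 in the deposited matrix and 19 at 1.5-fold, against 5. The median of the S-phase members was 0.53 against the non-irradiated primary and 0.49 between the primaries with normexp. Against the irradiated primary it ran from -0.018 to 0.10 with 1 nodule left out, negative without nodule 3. That of the mitotic members ran from 0.26 to 0.44 there. Over all features, 695 passed against the irradiated primary, 436 with median scaling, 398 without a trend and 0 to 3191 with 1 nodule left out; against the non-irradiated primary 3514 passed, and 0 to 6408 with 1 nodule left out. The causes were not tested. Small differences from the irradiated primary changed sign, none of them called: with median scaling Mcm2 (0.036), Mcm4 (0.024) and Ccnb1 (0.0013), with the mean of all probes Mcm2 (0.077) and Rrm2 (-0.15), with quantile normalization Ccne1 (-0.011), in the deposited matrix Ccne1 (-0.012), and with 1 nodule left out Mcm6 (-0.094), Pcna (-0.0067), Rrm2 (-0.052), Ccne1 (-0.079 to 0.20), Ccnb1 (-0.24 to 0.044) and Foxm1 (-0.0081). No paired analysis was possible because each primary is 1 array and its title carries no number. Slide row could not serve as a block because it coincides with the groups.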
